A study of Mus musculus with 18 samples.

Results

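Interferon-induced genes were followed through control mouse lung, spontaneous tumours of the lung and tumours that arose under cobalt exposure. A list of 39 genes was searched on the array, and 37 of them had a probe set annotated with that gene's symbol alone. They are 37 of the 18193 genes measured in this way. Isg15, whose only probe set is also annotated to a second gene, and Ifi44 were not analysed here. Where several probe sets named the same gene, the one with the highest mean over the 18 arrays stood for it. The 37 genes had 60 probe sets in all, and 16 genes had more than 1.

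Interferons are secreted proteins through which cells announce viral infection and through which immune cells activate their neighbours. Type I and type III interferons lead to a complex holding STAT2 and IRF9 that binds the interferon-stimulated response element (ISRE), while interferon gamma acts mainly at gamma-activated sites (GAS) and through IRF1. The induced genes encode sensors of foreign RNA and DNA, proteins that block viral RNA or its translation, enzymes that attach and remove the ubiquitin-like protein ISG15, and GTPases that attack vacuoles holding microbes. In healthy lung, epithelium, endothelium and resident immune cells hold a low tonic level of many of these transcripts.

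The arrays came from B6C3F1/N mice in a long-term inhalation study of cobalt metal, with 6 arrays of lung from vehicle control mice, 6 of spontaneous lung tumours and 6 of lung tumours from cobalt-treated mice. The mice were 5 to 6 weeks old at the start, and exposure ran over chamber concentrations of 0 to 5 mg/m3 for 6 hours per day, 5 days per week and up to 105 weeks. Neither the concentration, the sex nor the individual mouse behind an array is given by the labels, so the p-values below measure only the spread between these arrays, which may in part be technical. Tumours were dissected out of the lung before RNA extraction, and 100 ng of total RNA was amplified per array.

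Array medians lay between 6.32 and 6.45 on the deposited log2 scale. Some arrays stood apart. Over all probe sets, cobalt tumour 6 had a mean r of 0.9713 with control lung and 0.9535 with its own group. Control lung 1 carried neutrophil marker RNA at 4.51 log2 units above the control mean. The labels of control lung 6 conflict, since its description alone calls it a spontaneous tumour. Over all probe sets it resembled control arrays (mean r 0.9894) more than spontaneous tumours (mean r 0.9351). All 6 control arrays had an Xist level above log2 10, as had 2 of 6 spontaneous and 4 of 6 cobalt tumour arrays, so that the sexes were not balanced between the groups.

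The measured mean level was below that of control lung for 28 of the 37 genes in spontaneous and 34 in cobalt tumours, as it was for 54.8% and 55.0% of all genes. Against control lung, 14 of the 37 genes (37.8%) fell in spontaneous tumours and 1, Eif2ak2, rose, in limma's test with Benjamini-Hochberg adjustment over all 18193 genes at 0.05. Over all genes, 18.2% fell and 16.4% rose in that comparison. In cobalt tumours 23 of the 37 genes (62.2%) fell and 1, Mx1, rose, while 19.3% of all genes fell and 14.7% rose. The median log2 change of the 37 genes was -0.56 in spontaneous and -0.87 in cobalt tumours, against -0.03 for all genes in each. All 14 genes that fell in spontaneous tumours also fell in cobalt tumours, both comparisons sharing the same 6 control arrays. A further 9 fell in cobalt tumours and did not pass in spontaneous tumours; the direct test between the tumour groups, given with that comparison, called none of them. Neither a rise nor a fall passed for 12 genes.

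Without cobalt tumour 6 and control lung 1 together, 11 genes fell in spontaneous and 22 in cobalt tumours. Among arrays with Xist above log2 10 alone, the counts were 11 and 19, with the calls of Eif2ak2, Ifit1, Oas2, Oasl2 and Rsad2 in spontaneous and of Gbp3, Ifit3, Irf9, Parp14 and Parp9 in cobalt tumours lost (adjusted p from 0.0594 for Gbp3 to 0.329 for Rsad2, limma). With the level of Y-linked RNA as a covariate, 6 genes fell in spontaneous and 20 in cobalt tumours. Of all 18193 genes, 2288 and 2835 fell among the arrays with high Xist, and 2526 and 3181 with the covariate. In spontaneous tumours the share of the 37 genes that fell with the covariate was thus close to that of all genes. That covariate ended the calls of Ddx58, Eif2ak2, Ifit1, Ifit2, Mx2, Oas2, Oasl2, Rsad2 and Rtp4 in spontaneous tumours (adjusted p from 0.0522 for Mx2 to 0.269 for Ifit1) and of Ifit3, Mx1, Parp14 and Parp9 in cobalt tumours (0.0724 for Ifit3 to 0.0994 for Parp9, limma). These arrays are of bulk tissue, in which fewer cells of a type and less RNA per cell cannot be told apart.

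**Figure D1:**
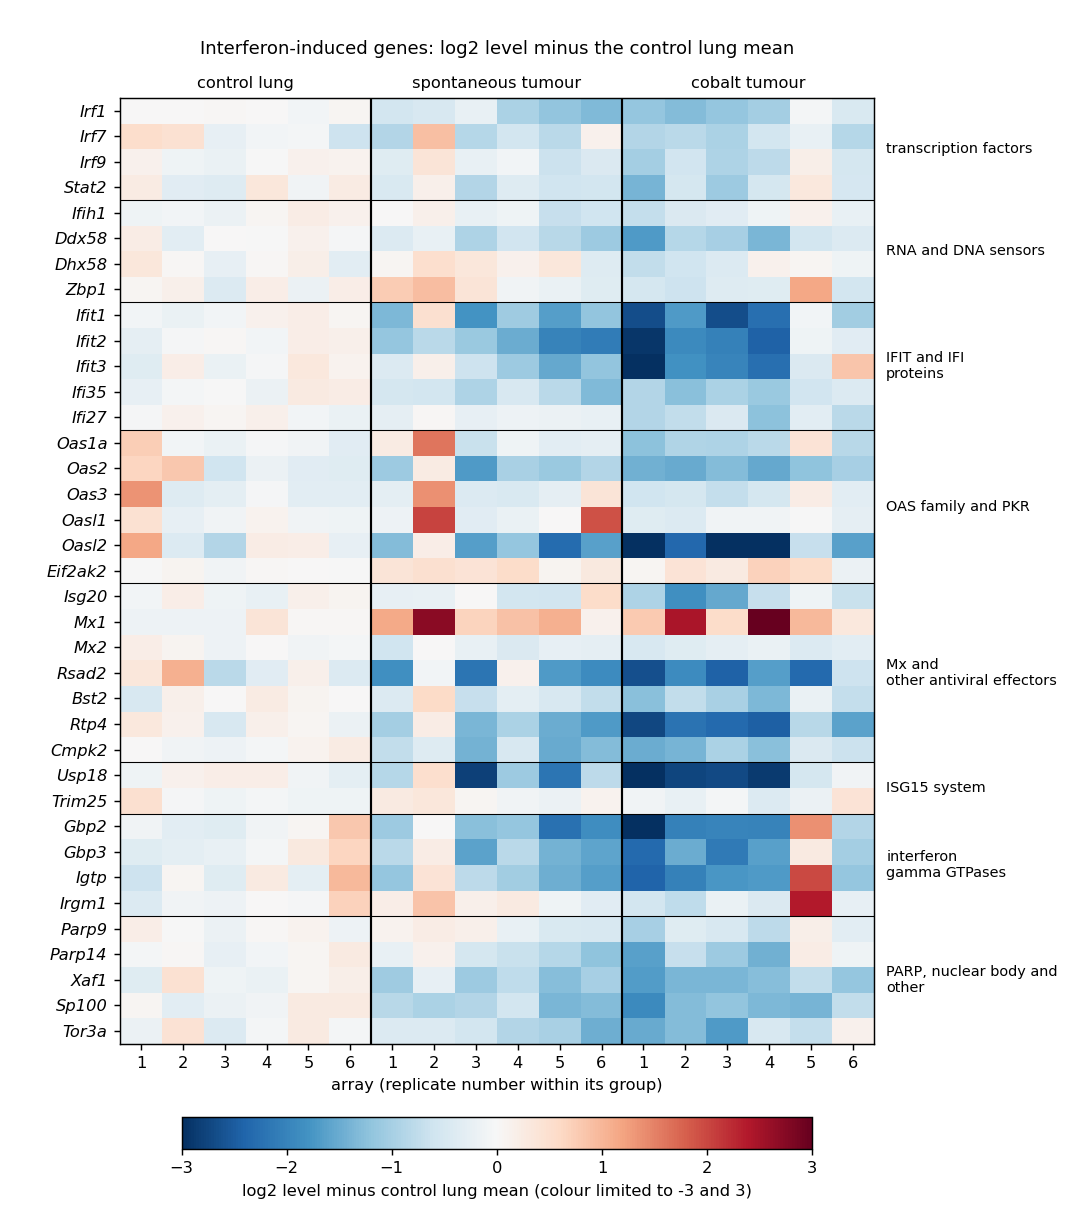
Log2 level minus the control lung mean for each of the 37 genes (rows, by role) in each of the 18 arrays (columns); blue is below and red above the control mean, and colours stop at -3 and 3. Most tumour columns are blue, whereas spontaneous tumour 2 and cobalt tumour 5 are paler or red for many genes, and Mx1 is red in most tumours.

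The genes were listed as interferon-induced, and interferons act through the ISRE and GAS as described above. A motif share above that of all genes thus describes the list and is no result of these arrays. RefSeq promoter windows, from 250 bases before to 50 bases after a gene's start in GRCm38.p6, were found for 26 of the 37 genes, in 33 windows. The other 11 are Ifi27, Dhx58, Mx1, Mx2, Oas2, Usp18, Parp9, Parp14, Rtp4, Zbp1 and Tor3a. An ISRE-like motif, GAAANNGAAA or its other strand TTTCNNTTTC, where N is any base, occurred in 14 of 26 genes (53.8%), against 3.99% of 27025 genes in the table. By window it was 14 of 33 (42.4%) against 3.44% of 32851 windows. A GAS-like motif, TTCNNNGAA on either strand, occurred in 8 of 26 genes (30.8%) against 9.55%. In 1 window, that of Bst2, an ISRE-like and a GAS-like match overlapped.

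The stretches below hold the matches, in capitals, of genes that fell in cobalt tumours (Ifit1, Ifit3, Rsad2, Gbp3 and Bst2) and of genes whose chosen probe set passed in neither comparison (Igtp, Irgm1, Gbp2, Oas3 and Stat2), so that the motif can be compared between them. The second match of Ifit3 lies beyond its stretch. Each reads 5′ to 3′ on the gene's strand in GRCm38.p6.
Ifit1 (chr19:34640765-34640814, plus strand): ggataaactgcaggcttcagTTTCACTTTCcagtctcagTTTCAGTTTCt
Ifit3 (chr19:34583353-34583402, plus strand): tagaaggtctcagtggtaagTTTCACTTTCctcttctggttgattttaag
Rsad2 (chr12:26456543-26456592, minus strand): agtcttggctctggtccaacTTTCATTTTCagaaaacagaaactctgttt
Gbp3 (chr3:142559979-142560028, plus strand): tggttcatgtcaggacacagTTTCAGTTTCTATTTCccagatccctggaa
Bst2 (chr8:71537573-71537622, minus strand): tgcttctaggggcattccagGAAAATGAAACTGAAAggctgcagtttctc
Igtp (chr11:58199502-58199551, plus strand): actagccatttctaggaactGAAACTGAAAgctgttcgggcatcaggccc
Irgm1 (chr11:48871421-48871470, minus strand): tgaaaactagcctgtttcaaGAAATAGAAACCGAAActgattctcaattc
Gbp2 (chr3:142620584-142620633, plus strand): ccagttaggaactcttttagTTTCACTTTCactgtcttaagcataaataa
Oas3 (chr5:120777705-120777754, minus strand): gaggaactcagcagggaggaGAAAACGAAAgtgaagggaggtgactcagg
Stat2 (chr10:128270256-128270305, plus strand): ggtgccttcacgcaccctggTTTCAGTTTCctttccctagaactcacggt

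An ISRE-like match was in 6 of 15 genes with a window that fell in cobalt tumours (40.0%) and in 8 of the 11 that did not (72.7%), as a description with no test. Within the Ifit cluster on chromosome 19, Ifit1 and Ifit3 had 2 matches each, and the windows of Ifit2 had none. Gbp3 and its neighbour Gbp2 both had a match within 60 bases of the start. Neither Sp100, Xaf1, Oasl2 nor Cmpk2 had one in its windows. The search allowed no mismatch and covered only these windows, so an ISRE of another form or place would be missed.

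Of the transcription factors, Irf1, the primary response factor of interferon gamma signalling, had the smallest SD of the 37 genes in control lung (0.05). Its log2 level ran from 10.83 through a median of 10.93 to 10.97 in control lung, from 9.59 through 10.17 to 10.69 in spontaneous tumours and from 9.61 through 9.84 to 10.85 in cobalt tumours. Every spontaneous tumour lay below every control lung, and only cobalt tumour 5 reached the control range. The fall was 1.73-fold in spontaneous (adjusted p = 0.00625) and 1.82-fold in cobalt tumours (adjusted p = 0.00326, limma). Irf9, the DNA-binding subunit of the type I complex, fell in cobalt tumours by 0.61 on the log2 scale (adjusted p = 0.0157, limma). Stat2, its partner, missed the threshold at a log2 change of -0.62 (adjusted p = 0.0516) in cobalt and -0.45 (adjusted p = 0.156) in spontaneous tumours. Irf7, which amplifies type I interferon production, had log2 changes of -0.70 (95% interval -1.28 to -0.12) and -0.34 (-0.92 to 0.24) in the same order, with neither past the threshold.

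Among the nucleic acid sensors 1 of 4 genes passed the test. Ddx58, which encodes the RNA helicase RIG-I, spanned 8.83 to 9.36 in control lung, 8.06 to 8.92 in spontaneous and 7.43 to 8.73 in cobalt tumours, so that all 6 cobalt tumours lay below all control lungs. It fell 1.6-fold in spontaneous (adjusted p = 0.012) and 1.98-fold in cobalt tumours (adjusted p = 0.000785, limma). The related helicases Ifih1 (MDA5) and Dhx58 (LGP2), and Zbp1, a sensor of Z-form nucleic acid, passed in neither comparison, with log2 changes between -0.29 and 0.23. Of these, Zbp1 was at 8.17 in cobalt tumour 5 and between 6.39 and 6.64 in the other cobalt tumours.

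The IFIT proteins bind foreign viral RNA and hold back its translation, and their genes were among the largest falls. Ifit2 ran from 8.05 through 8.33 to 8.54 in control lung and from 6.24 through 7.0 to 7.53 in spontaneous tumours, with no overlap between these groups. In cobalt tumours it ran from 5.41 through 6.37 to 8.2, where tumours 5 and 6 stood at 8.2 and 8.0 and the other 4 at 6.42 or below. It fell 2.72-fold in spontaneous (adjusted p = 0.0085) and 3.08-fold in cobalt tumours (adjusted p = 0.00376, limma).

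Ifit1 lay between 8.04 and 8.45 in control lung, with medians of 8.24 there, 6.99 in spontaneous and 6.27 in cobalt tumours. Its highest tumour value, 8.72 in spontaneous tumour 2, was above every control lung, and the next spontaneous tumour stood at 7.18. The lowest spontaneous tumour was at 6.46. In cobalt tumours Ifit1 ranged from 5.58 to 8.16 and fell 3.33-fold (adjusted p = 0.00307, limma). In spontaneous tumours the fall was 2.14-fold (adjusted p = 0.0472, limma). That second call rested on its threshold: leaving out any of 13 single arrays ended it (each control lung, each spontaneous tumour but 2, and cobalt tumours 2 and 4), with log2 changes of -1.14 to -0.96 and adjusted p of 0.0507 to 0.101.

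Ifit3 spanned 8.83 to 9.51 in control lung, with a median of 9.22. It spanned 7.66 to 9.35 in spontaneous tumours and 6.21 to 10.02 in cobalt tumours, with medians of 8.34 and 7.30. Cobalt tumour 6, at 10.02, was above all controls, while cobalt tumours 1 to 4 were at or below 7.38. The fall was 2.71-fold in cobalt tumours (adjusted p = 0.0267, limma) and ended when any of 6 single arrays was left out (cobalt tumour 1, 2, 3 or 4, or control lung 2 or 5; highest adjusted p 0.0691). In spontaneous tumours the log2 change of -0.78 did not pass (adjusted p = 0.226).

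Ifi35, which binds the STAT-interacting protein NMI, lay at 10.90 to 11.41 in control lung, 9.83 to 10.67 in spontaneous and 9.90 to 10.74 in cobalt tumours. Neither tumour group overlapped the controls, and the fall was 1.7-fold (adjusted p = 0.00124) and 1.82-fold (adjusted p = 0.000434, limma). Ifi27, a small membrane protein gene, lay at 10.92 to 11.26 in control lung and 10.84 to 11.14 in spontaneous tumours, a log2 change of -0.18 (95% interval -0.43 to 0.08). In all 6 cobalt tumours it was below both other groups, at 9.88 to 10.79, a 1.66-fold fall against control lung (adjusted p = 0.000166, limma).

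The 2′-5′ oligoadenylate synthetases make the activator of RNase L, and PKR, encoded by Eif2ak2, stops translation on double-stranded RNA. The 6 genes of this group did not move together: 1 rose and 2 fell in spontaneous tumours, and 2 fell in cobalt tumours. Oasl2, a synthetase-like protein gene, ran from 8.15 through 9.01 to 10.19 in control lung, from 6.73 through 7.56 to 9.23 in spontaneous tumours and from 5.81 through 6.35 to 8.34 in cobalt tumours. Only spontaneous tumour 2 and cobalt tumour 5 reached the control range. Its 5.1-fold fall in cobalt tumours was the largest of the 37 genes (adjusted p = 0.000735, limma). In spontaneous tumours it fell 2.49-fold (adjusted p = 0.0358, limma), a call that ended without any 1 of control lungs 1, 4 and 5 or of the spontaneous tumours other than 2 (log2 changes of -1.34 to -1.08, highest adjusted p 0.087).

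Oas2 ran from 7.67 through 8.0 to 9.08 in control lung, from 6.57 through 7.22 to 8.5 in spontaneous and from 6.73 through 6.89 to 7.26 in cobalt tumours. It fell 1.89-fold in spontaneous (adjusted p = 0.016) and 2.52-fold in cobalt tumours (adjusted p = 0.00117, limma), where no cobalt tumour overlapped the controls. Oas1a passed in neither comparison. It stood at 10.34 in spontaneous tumour 2 and 9.16 in cobalt tumour 5, whereas the other cobalt tumours lay at 7.50 to 7.92, below all control lungs. Oas3 and Oasl1 are dim genes, with a mean level at or below log2 6.12, where differences may be compressed. They had medians of 5.38 and 5.39 in control lung and reached 7.04 and 7.51 in spontaneous tumour 2. Oasl1 also reached 7.41 in spontaneous tumour 6, and Oas3 7.02 in control lung 1.

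Eif2ak2 rose 1.29-fold in spontaneous tumours (adjusted p = 0.024, limma), from 7.34 to 7.54 in control lung to 7.53 to 8.01, and 5 of 6 tumours lay above all controls. The rise ended without control lung 3 (adjusted p = 0.0502) or spontaneous tumour 4 (adjusted p = 0.0562). In cobalt tumours the log2 change of 0.30 did not pass (adjusted p = 0.0622). The 2 dimmer probe sets of Eif2ak2 both passed in both tumour groups in the fit over all probe sets, at log2 changes of 1.14 and 1.05 in spontaneous (adjusted p = 3.28e-05 and 0.000743) and 1.00 and 0.83 in cobalt tumours (adjusted p = 0.000106 and 0.00423, limma).

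Genes of the Mx family encode dynamin-like GTPases that can trap viral nucleocapsids. The RNA levels here do not show whether a working Mx protein was made. The directions of Mx1 and Mx2 differed in cobalt tumours. Mx1 lay at 5.34 to 5.88 in control lung, with a median of 5.44. In cobalt tumours it ran from 5.82 through 6.38 to 8.74, the values of cobalt tumours 4 and 2 being 8.74 and 7.95. In spontaneous tumours it ran from 5.62 through 6.48 to 8.21, with the highest value in spontaneous tumour 2. The rise was 2.62-fold in cobalt tumours (adjusted p = 0.0261, limma), and it ended without cobalt tumour 2 (1.18 on the log2 scale, adjusted p = 0.0656) or cobalt tumour 4 (1.02, adjusted p = 0.0599). In spontaneous tumours the log2 change of 1.10 did not pass (adjusted p = 0.0739), with 5 of 6 tumours above all controls. Mx2, a dim gene, fell 1.23-fold in spontaneous (adjusted p = 0.0187) and 1.27-fold in cobalt tumours (adjusted p = 0.00738, limma).

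**Figure D2:**
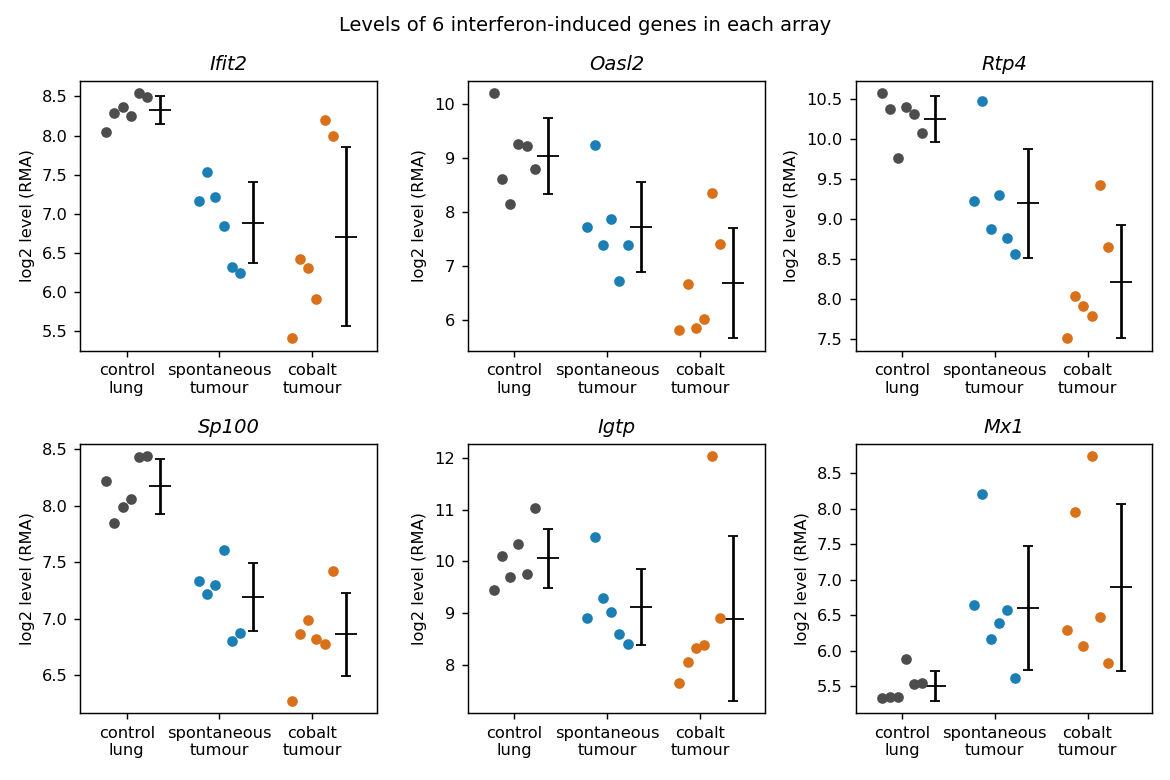
Log2 level (RMA) of 6 genes in each array, 1 point per array, with the mean and SD of each group of 6 beside the points. Sp100 separates both tumour groups from control lung, Ifit2 has 2 cobalt tumours at 8.0 and 8.2 near the controls, Igtp has cobalt tumour 5 at 12.04, and Mx1 is higher in most tumours.

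The other 5 effectors fell in cobalt tumours, and 3 of them also in spontaneous tumours. Rtp4, a chaperone-like gene that restrains flavivirus replication, ran from 9.76 through 10.34 to 10.57 in control lung and from 8.56 through 9.05 to 10.47 in spontaneous tumours. In cobalt tumours it ran from 7.51 through 7.98 to 9.42, below every control lung. The fall was 4.08-fold in cobalt (adjusted p = 0.000101) and 2.07-fold in spontaneous tumours (adjusted p = 0.0163, limma).

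Rsad2, which encodes viperin, the maker of a chain-terminating nucleotide, shares its genomic neighbourhood with Cmpk2, a mitochondrial nucleotide kinase gene. Rsad2 ran from 8.16 through 8.90 to 10.05 in control lung, 6.80 through 7.21 to 9.12 in spontaneous and 6.34 through 6.86 to 8.35 in cobalt tumours. It fell 3.83-fold in cobalt tumours (adjusted p = 0.00236, limma) and 2.39-fold in spontaneous tumours (adjusted p = 0.0347, limma), where the call ended without any 1 of control lungs 1, 2 and 5 and spontaneous tumours 1, 3, 5 and 6 (log2 changes of -1.23 to -1.05, highest adjusted p 0.0876). Cmpk2 overlapped the controls in neither tumour group: it ran from 7.62 through 7.73 to 8.01 in control lung, from 6.26 through 6.76 to 7.39 in spontaneous and from 6.27 through 6.66 to 7.33 in cobalt tumours. Its falls were 1.95-fold (adjusted p = 0.0018) and 2.05-fold (adjusted p = 0.00104, limma).

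Bst2, the tetherin that holds budding virus at the membrane, fell 1.84-fold in cobalt tumours (adjusted p = 0.00442, limma), with 7.77 to 8.92 there against 8.63 to 9.37 in control lung. Isg20, an RNA exonuclease gene, fell 1.96-fold (adjusted p = 0.00467, limma), with 8.10 to 9.81 against 9.72 to 10.13. In spontaneous tumours neither passed, at log2 changes of -0.34 and -0.18.

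Of the ISG15 system, Usp18, which strips ISG15 from proteins and damps the type I receptor, varied widely among the cobalt tumours (SD 1.46, n = 6). It lay at 8.41 to 8.90 in control lung, with a median of 8.72, and at 4.92, 5.95, 6.0 and 5.82 in cobalt tumours 1 to 4, but at 8.17 and 8.6 in cobalt tumours 5 and 6. The fall was 4.37-fold (adjusted p = 0.00865, limma). In spontaneous tumours it ran from 5.9 through 7.72 to 9.2 with a log2 change of -1.21 that did not pass (adjusted p = 0.12). Trim25, the ubiquitin ligase that also serves ISG15, had log2 changes of 0.08 and -0.09, with 95% intervals of -0.20 to 0.36 and -0.37 to 0.19.

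The guanylate-binding proteins and immunity-related GTPases are induced chiefly by interferon gamma. Gbp3 ran from 8.14 through 8.35 to 9.15 in control lung, from 6.90 through 7.39 to 8.72 in spontaneous and from 6.17 through 6.94 to 8.77 in cobalt tumours. It fell 2.61-fold in cobalt tumours (adjusted p = 0.00936, limma), and its log2 change of -1.0 in spontaneous tumours just missed the threshold (adjusted p = 0.0527). Gbp2 missed it in both, at -1.47 in cobalt (adjusted p = 0.0536) and -1.26 in spontaneous tumours (adjusted p = 0.0952). Its other probe set, nearly as bright (control mean 9.28 against 9.45), passed in both in the fit over all probe sets, at -1.82 (adjusted p = 0.0133) and -1.6 (adjusted p = 0.027, limma). Igtp and Irgm1 passed in neither comparison.

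In this group cobalt tumour 5 stood far from the other cobalt tumours. Its Igtp level was 12.04 against 7.65 to 8.90 in the other 5, and its Irgm1 level 11.51 against 8.38 to 8.94. For Gbp2 it was 10.82 against 6.14 to 8.56. The mean of the 4 genes was 1.5 log2 units above the control mean in cobalt tumour 5, and between -2.15 and -0.83 in the other 5. Gamma-type genes outside the 37 were high in the same tumour: Iigp1 was at 13.04 against 7.98 to 8.96 in the other cobalt tumours, Gbp6 at 11.64 against 6.28 to 7.36, and the chemokine gene Cxcl9 at 9.34 against 5.18 to 6.08. They were chosen after their values were seen. Ifng itself was dim, at 4.65 in cobalt tumour 5 and 3.90 to 4.37 in all other arrays. The mean of 13 T and NK cell markers was 0.54 log2 units below the control mean in that tumour and 1.10 to 1.23 below it in the other cobalt tumours, and the part of these cells in the result was not tested.

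**Figure D3:**
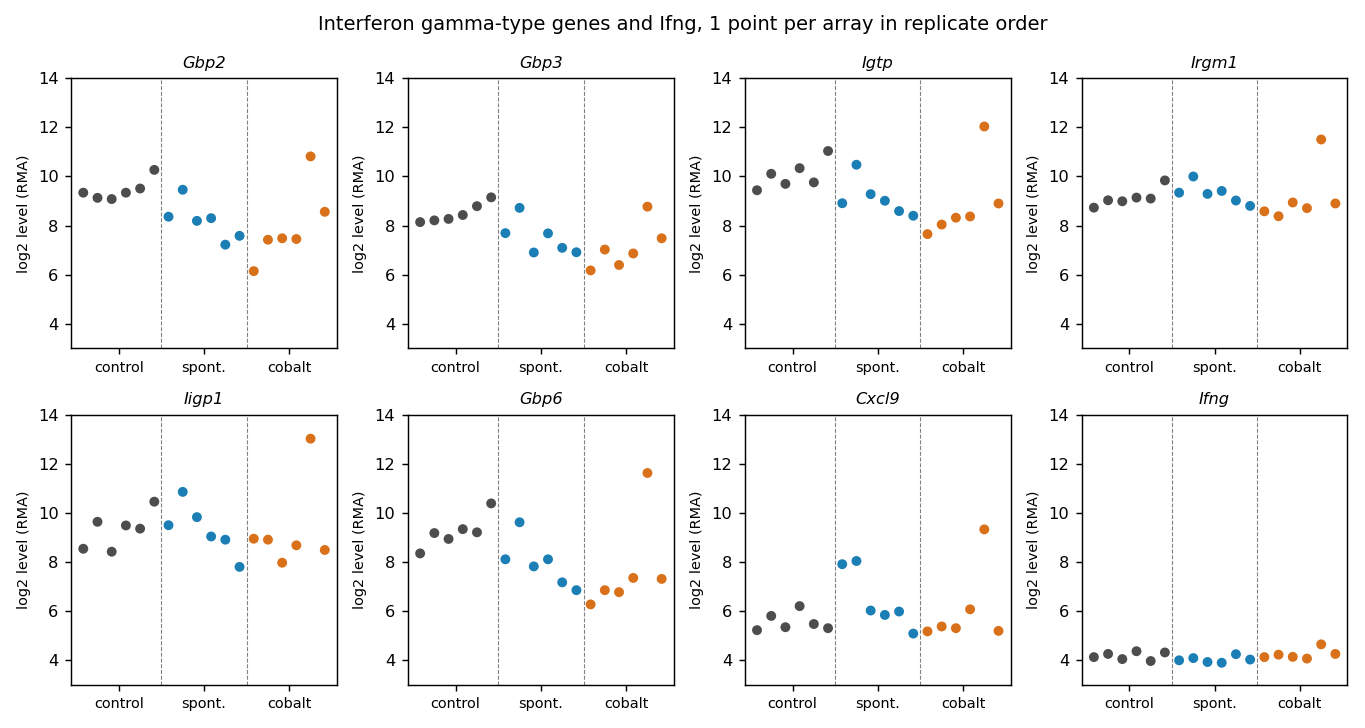
Log2 level (RMA) of 4 gamma-induced members (top) and of Iigp1, Gbp6, Cxcl9 and Ifng (bottom), 1 point per array in replicate order within control lung, spontaneous and cobalt tumours. Cobalt tumour 5 is the highest point in Igtp (12.04), Irgm1 (11.51), Iigp1 (13.04) and Gbp6 (11.64), while Ifng stays between 3.90 and 4.65.

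The last 5 genes fell together in cobalt tumours, 5 of 5. Sp100, a component of PML nuclear bodies, ran from 7.85 through 8.14 to 8.44 in control lung, from 6.80 through 7.26 to 7.61 in spontaneous and from 6.27 through 6.84 to 7.42 in cobalt tumours, without overlap of either group with the controls. Its falls of 1.97-fold (adjusted p = 0.00027) and 2.48-fold (adjusted p = 1.84e-05, limma) had the smallest adjusted p of the 37 genes in both comparisons. Xaf1, which binds the caspase inhibitor XIAP, lay at 9.26 to 10.07 in control lung, 8.34 to 9.37 in spontaneous and 7.94 to 8.88 in cobalt tumours, and fell 1.87-fold (adjusted p = 0.000715) and 2.4-fold (adjusted p = 3.71e-05, limma). Tor3a, a torsin-family ATPase gene, fell 1.72-fold in spontaneous (adjusted p = 0.0341) and 1.91-fold in cobalt tumours (adjusted p = 0.0128, limma). Its call in spontaneous tumours ended without any of 6 single arrays, control lung 2, 4 or 5 or spontaneous tumour 4, 5 or 6 (highest adjusted p 0.0813).

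The ADP-ribosyltransferase-family genes Parp14 and Parp9 fell in cobalt tumours, at -0.79 (adjusted p = 0.0352) and -0.46 (adjusted p = 0.0469, limma), and had log2 changes of -0.56 and -0.11 that did not pass in spontaneous tumours. A dimmer second probe set of Parp14 passed in both, at -0.76 (adjusted p = 0.000793) in cobalt and -0.57 (adjusted p = 0.00777, limma) in spontaneous tumours. Both calls were near the threshold: that of Parp14 ended without any 1 of cobalt tumours 1, 3 and 4 and the control lungs other than 3 (-0.80 to -0.62, highest adjusted p 0.0899). That of Parp9 ended without any 1 of cobalt tumours 1 to 4, spontaneous tumours 1 and 4 and all 6 control lungs (-0.49 to -0.35, highest adjusted p 0.118). Neither passed among arrays with Xist above log2 10, at -0.42 and -0.25 (adjusted p = 0.192 and 0.199).

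**Figure D4:**
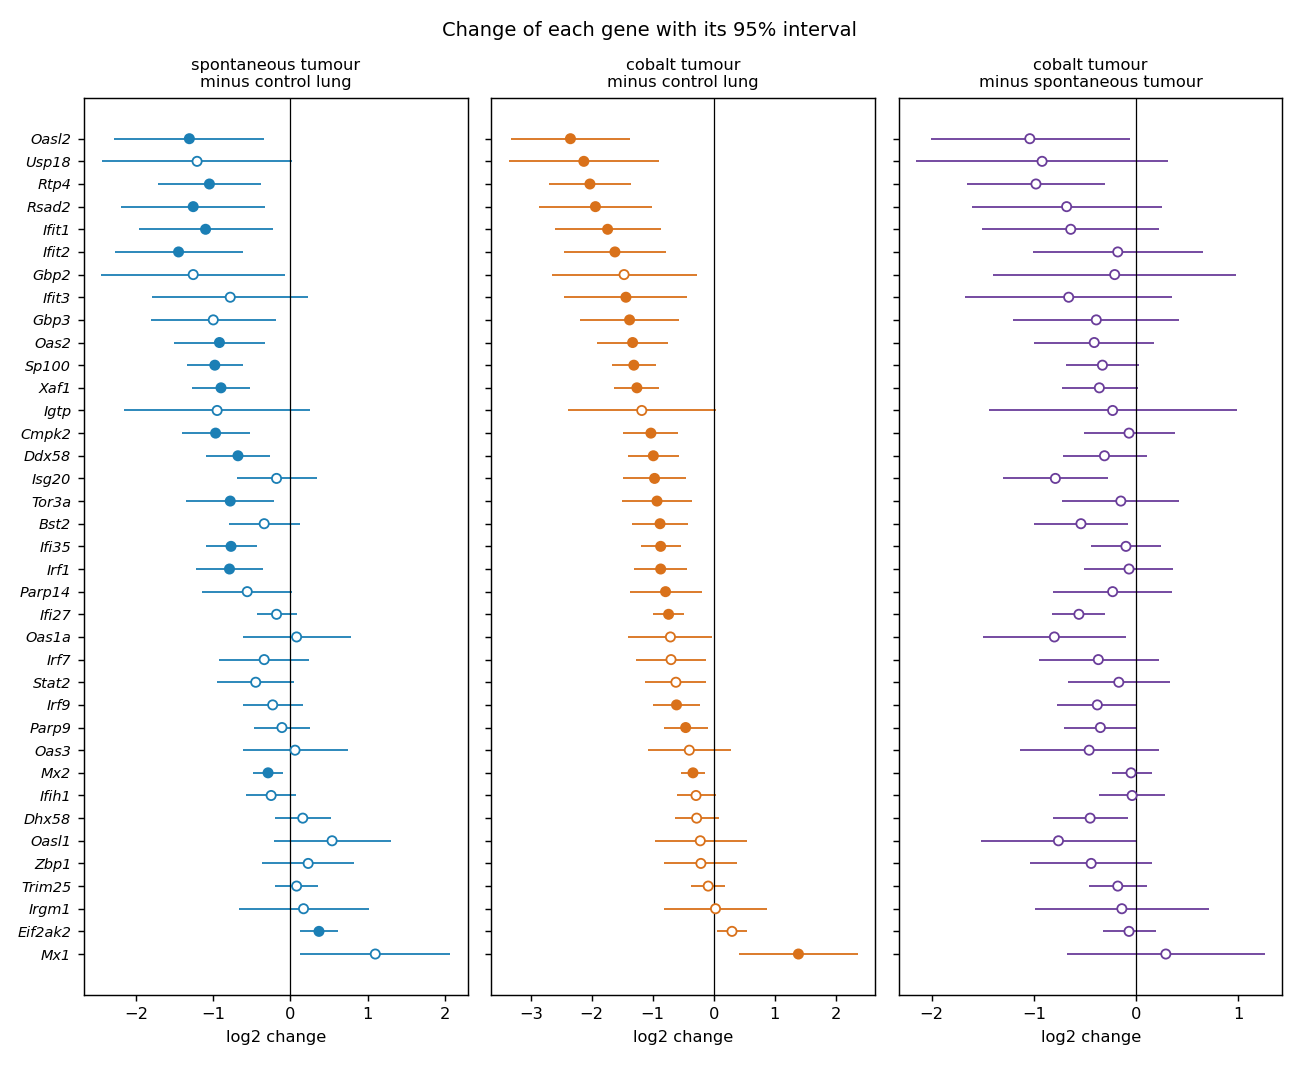
Log2 change with its 95% interval for each of the 37 genes in the 3 comparisons, ordered by the change in cobalt tumours against control lung; filled points passed the adjusted threshold of 0.05, and each panel has its own horizontal scale. In the first panel 14 genes are filled below 0, in the second 23, and in the third none.

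Fewer genes separated the groups completely. No gene of the 37 lay wholly above the controls, 0 in spontaneous and 0 in cobalt tumours, where 9.21% and 8.1% of all genes did. In spontaneous tumours 5 of 37 genes lay wholly below the controls (Cmpk2, Ifi35, Ifit2, Irf1 and Sp100), against 11.9% of all genes, which is close to their 13.5%. In cobalt tumours 9 did (24.3%), against 10.8% of all genes: Cmpk2, Ddx58, Ifi27, Ifi35, Mx2, Oas2, Rtp4, Sp100 and Xaf1. The 16 genes with several probe sets gave the same sign on all of them for 15 genes in spontaneous and 14 in cobalt tumours, the exceptions being Dhx58 in the first and Dhx58 and Zbp1 in the second. Calls differed between some probe sets: 1 dimmer probe set each of Rtp4, Xaf1 and Tor3a passed in neither tumour group (adjusted p from 0.0721 for Tor3a to 0.701 for Rtp4), and 1 of Rsad2 did not in spontaneous tumours (adjusted p = 0.112, limma).

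Counted by array, the genes below the lowest control lung numbered 34, 35, 31, 30, 14 and 27 in cobalt tumours 1 to 6 and 23, 6, 29, 22, 27 and 27 in spontaneous tumours 1 to 6. Over all genes, between 29.5% and 35.7% were below the lowest control in a tumour array. Spontaneous tumour 2 thus fell short of that share, with 6 of 37 genes (16.2%) below and 14 of 37 (37.8%) above the control range, where 32.6% and 29.5% of all genes lay in that array. It held the highest level of its group in 30 of the 37 genes. Cobalt tumour 5 was highest in its group in 24 genes and cobalt tumour 1 lowest in 21. The mean of all 37 genes, relative to the control mean, ran from -0.22 to 0.09 in control lungs, from -0.87 to 0.31 in spontaneous and from -1.47 to -0.05 in cobalt tumours.

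Left out together, spontaneous tumour 2 and cobalt tumour 5 raised the number of genes that fell from 14 to 23 in spontaneous and from 23 to 29 in cobalt tumours. This pair was chosen after the values were seen. Many of the 37 genes were highest of their group in these arrays. Their removal lowers the tumour means, so the larger counts follow from the choice. Of all 18193 genes, 3240 fell in spontaneous and 3336 in cobalt tumours without the pair, against 3320 and 3504 with it. The 37 genes varied more among arrays than genes did in general: their median SD was 0.25 in control lung, 0.48 in spontaneous and 0.49 in cobalt tumours, against 0.16, 0.22 and 0.22 for all genes. Of the 37, 35 and 32 had a larger SD in spontaneous and in cobalt tumours than in control lung. That count was not made over all genes, whose median SD was also larger in tumours.

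**Figure D5:**
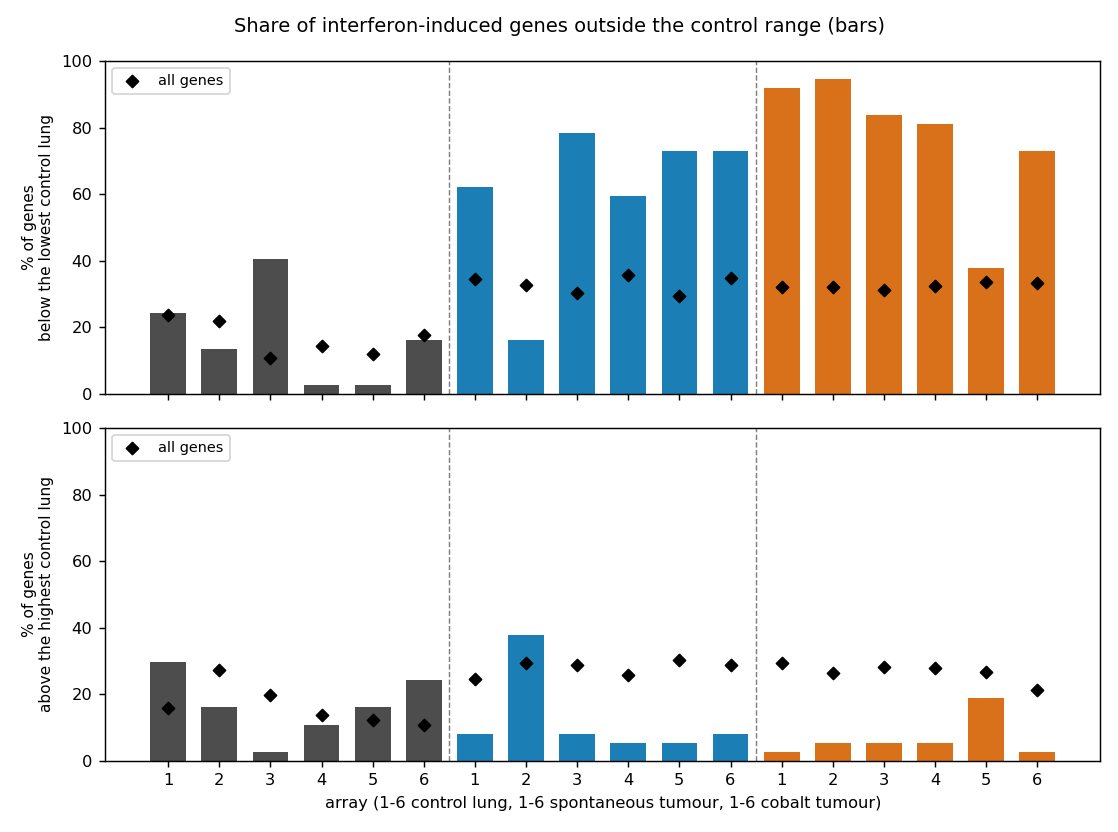
Share of the 37 genes (bars) and of all genes (diamonds) below the lowest (top) or above the highest (bottom) control lung in each array, in percent; each control lung is set against the other 5. Most tumour bars in the top panel are far above the diamonds, while spontaneous tumour 2 is below its diamond at 16.2% and cobalt tumour 5 reaches 37.8%.

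Between the tumour groups no gene passed: 0 of 37 rose and 0 fell in cobalt against spontaneous tumours in limma's test with the same adjustment, where 0.044% of all genes rose and 0.0385% fell. At an unadjusted p under 0.05 in limma's test, 0 were higher and 8 were lower. Over all genes, 11.6% had an unadjusted p under 0.05 in either direction. The exact permutation test also called 0, and its smallest adjusted p over all genes was 0.352 in this comparison. Its p for a single gene cannot be below 0.00216 here. After adjustment it therefore calls a gene only when many genes separate, and a difference in a few genes would be missed. The measured change was below 0 in 36 of the 37 genes, with a median of -0.36, against 50.1% of all genes. Without spontaneous tumour 2 the median was -0.20 and the count 31, and without cobalt tumour 1 they were -0.24 and 31. Among arrays with Xist above log2 10, which leave 2 spontaneous and 4 cobalt tumours, it was below 0 in 19 of 37, with a median of -0.01.

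Rtp4 had a log2 change of -0.98 between the tumour groups (95% interval -1.65 to -0.30, adjusted p = 0.234), Isg20 one of -0.79 (-1.30 to -0.28, adjusted p = 0.207) and Oasl2 one of -1.04 (-2.01 to -0.06, adjusted p = 0.398, limma). Ifi27 was the only one of the 37 without overlap, lying wholly lower as did 0.423% of all genes, while 0 lay wholly higher (0.192% of all genes). Its change of -0.56 (95% interval -0.82 to -0.30) had an adjusted p of 0.0883 in limma, and passed in 2 of 33 alternatives: without cobalt tumour 5 (-0.64, adjusted p = 0.0382) and with Y-linked RNA as a covariate (-0.63, adjusted p = 0.0458). Among arrays with Xist above log2 10 it was -0.38 (adjusted p = 0.699).

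Other genes of the interferon pathway came from lists chosen with results of these data known. Of 7 measured interferon genes, Ifna2 fell in both tumour groups, by 0.55 and 0.60 on the log2 scale (adjusted p = 9.06e-05 and 4.26e-05), and Ifna1 in spontaneous tumours by 0.51 (adjusted p = 0.00416, limma). All of these lay near the bottom of the scale, the mean of the 7 being 4.66 to 5.23 in every array. Of 14 receptor and JAK-STAT genes 2 rose (14.3%) and 3 fell (21.4%) in each tumour group, shares near those of all genes (16.4% and 18.2% in spontaneous, 14.7% and 19.3% in cobalt tumours). Ifngr1, the ligand-binding chain of the interferon gamma receptor, fell 2.09-fold in spontaneous (adjusted p = 0.00242) and 2.28-fold in cobalt tumours (adjusted p = 0.00101), and the kinase gene Jak1 1.79-fold (adjusted p = 0.000255) and 2.15-fold (adjusted p = 1.96e-05, limma). Pias1, a SUMO ligase gene, fell 1.5-fold and 1.54-fold (adjusted p = 0.00277 and 0.00164). Socs3, a feedback inhibitor of cytokine signalling, rose 1.98-fold and 1.85-fold (adjusted p = 0.0144 and 0.0262), and Il10rb, shared by the type III and interleukin 10 receptors, 1.29-fold and 1.48-fold (adjusted p = 0.0178 and 0.00082, limma).

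Of 13 measured genes of innate sensing upstream of interferon, 3 fell (23.1%) and 1 rose in spontaneous and 4 fell (30.8%) in cobalt tumours. The list holds adaptors, kinases and transcription factors beside sensors, and its sensor genes Tlr3, Tlr7, Tlr8 and Tlr9 passed in neither comparison. Irf8, Unc93b1 and Irf3 fell in both tumour groups, by 0.86, 0.37 and 0.28 in spontaneous and 0.92, 0.64 and 0.25 in cobalt tumours on the log2 scale. Irf5 fell in cobalt tumours by 0.68, and Mavs, the adaptor of RIG-I, rose in spontaneous tumours by 0.24. Of 51 further interferon-induced genes outside the 37, 25 fell (49.0%) and 1, Lgals3bp, rose in spontaneous tumours, with a median log2 change of -0.62. In cobalt tumours 31 fell (60.8%) and 0 rose, with a median of -0.75. Over all genes, 18.2% fell in spontaneous and 19.3% in cobalt tumours. The largest fall of the list in spontaneous tumours was that of Ifitm6, at -2.32, and Ifitm1 had -1.94 (adjusted p = 0.0409 and 0.0396, limma). Both leaned on control lung 1, with Ifitm6 at 13.27 against 6.47 to 8.36 in the other controls and Ifitm1 at 13.88 against 9.6 to 10.41. Slfn5 fell 4.34-fold in spontaneous and 4.97-fold in cobalt tumours (adjusted p = 4.64e-05 and 2.08e-05), and Ifitm3, which blocks virus entry, 3.24-fold and 4.45-fold (adjusted p = 4.54e-05 and 4.44e-06, limma). Ifi27l2a fell 5.73-fold in cobalt tumours (adjusted p = 0.000341, limma).

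Markers of other cells moved in the same arrays. Over all genes, 18.2% fell and 16.4% rose in spontaneous tumours, and 19.3% fell and 14.7% rose in cobalt tumours. All 16 endothelial markers fell in both tumour groups, their mean level being 11.25 to 11.67 in control lung, 7.99 to 9.39 in spontaneous and 7.66 to 10.53 in cobalt tumours. The highest of these tumour values belonged to cobalt tumour 6. Of 13 T and NK cell markers, 7 fell in spontaneous and 9 in cobalt tumours, with mean levels of 6.75 to 7.36, 5.80 to 7.42 and 5.80 to 6.49. Their highest tumour value was that of spontaneous tumour 2, at 0.39 log2 units above the control mean. Of 7 B cell markers 4 fell in each tumour group.

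Epithelial markers rose (6 of 8 in each tumour group), as did macrophage and monocyte markers (8 of 12 in spontaneous and 6 of 12 in cobalt tumours, where 3 fell). Of the 10 alveolar type 2 markers 4 rose in spontaneous and 6 in cobalt tumours, where 1 fell. All 7 ciliated cell markers fell in both, and 6 of 8 alveolar type 1 markers fell in each. Fibroblast markers fell for 5 of 8 in each, and 1 rose in spontaneous tumours. Alveolar macrophage markers rose for 6 of 9 in spontaneous and 4 of 9 in cobalt tumours. Among 5 club cell markers 2 rose in each, while 2 fell in spontaneous and 3 in cobalt tumours. For 7 neutrophil markers 0 passed in either. Of 7 markers of plasmacytoid dendritic cells, a main source of type I interferon, 0 passed in spontaneous tumours, and Spib and Cox6a2 fell in cobalt tumours. Their defining marker Siglech had log2 changes of -0.07 and -0.09, with group means of 5.96 to 6.05. Across arrays the endothelial mean was low in spontaneous tumour 2 and cobalt tumour 5 as well, at -2.76 and -3.45 relative to the control mean, where the 37 genes averaged 0.31 and -0.05. The part of any of these cells in the lower levels of interferon-induced genes was not tested.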

How the data were processed

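RNA of 18 arrays was analysed, 6 each of control lung, spontaneous tumour and cobalt tumour, grouped by title, source and group label. The values the authors deposited are log2 signals per probe set from RMA, which the submitters' processing notes name without version or settings. RMA equalises the arrays' distributions, so a shift common to every gene would not show. Scanner files were not used here, so the alternatives of background correction, slide and detection calls were not run. Values ran from 3.34 to 15.26 and were used as deposited. Of 45101 probe sets, 64 were controls, 9160 lacked a symbol, 932 carried several symbols and 34945 carried 1. A gene took the probe set with the highest mean, which left 18193 genes.

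Group means were compared by lmFit and eBayes of limma 3.58.1 (R 4.3.3) over all 18 arrays with group as the only factor, two-sided, with Benjamini-Hochberg adjustment over all genes at 0.05. The design text names ORIOGEN for tumours against controls (not used here) and does not set the tumour groups against each other. The fit was tested on simulated data with 100 genes raised by 1 and 100 by 2 on the log2 scale. It recovered 82% and 97% of them, with 15 false calls among the other genes. Genes were simulated as independent and few were changed, unlike in these data. For arrays, their number limits the precision.

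The genes, the lists and the alternatives were chosen with earlier results of these data known. All genes past the threshold were named, the 8 largest changes per comparison with their levels, and of other pathway genes up to 6 in each direction and list. Deviations of same-numbered arrays from their group means had correlations from -0.338 to 0.195. These do not settle whether the numbers pair arrays, and the main fit used no pairing. Alternatives were cyclic loess, dim genes left out, the mean of all probe sets, all probe sets, trend and robust options, control lungs 5 and 6 averaged as 1 array (r 0.9966 over genes, the highest of the control pairs), array weights, 12 arrays alone, replicate block, Y-linked RNA as a covariate, Xist above log2 10, an exact permutation test and left-out arrays.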

Additional observations from a re-analysis of the deposited data

Results flagged for a closer look

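Of 111 groups of 6 arrays (37 genes in 3 groups), 14 held an array whose distance from its nearest neighbour was large for the range of the group by Dixon's criterion, which chance meets in about 1 of 20 groups. In control lung, array 1 was high for Oas1a (9.47), Oas3 (7.02) and Trim25 (10.8) and low for Bst2 (8.63). It is the array with neutrophil marker RNA at 4.51 log2 units above the control mean. Control lung 6 was high for the GTPase genes Gbp2 (10.27) and Irgm1 (9.84), and control lung 5 was low for Irf1 (10.83), where the other controls lay within 10.92 to 10.97.

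Spontaneous tumour 2 was high for Bst2 (9.7), Ifi27 (11.14) and Ifit1 (8.72). Cobalt tumour 5 was high for Igtp (12.04), Irgm1 (11.51), Oas1a (9.16) and Zbp1 (8.17), each with a gap of at least 0.716 of the group's range.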

How the results depend on the processing

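Of 39 results for single genes past the threshold, 22 passed under all 33 alternatives, Mx2 in cobalt tumours passed under the 32 that kept it, and no result turned its direction. In 1175 combinations the call held and in 110 it was lost. With Y-linked RNA as a covariate 0 rose in spontaneous and 0 in cobalt tumours against 1 in each, 6 fell in spontaneous tumours against 14, and 1 gene, Ifi27, fell in cobalt against spontaneous tumours. Of all 18193 genes, 2526 fell in spontaneous tumours with that covariate, against 3320 without it. With control lungs 5 and 6 as 1 array, 11 fell in spontaneous and 21 in cobalt tumours. Array weights gave 2 that rose in each. In spontaneous tumours 2 rose by the exact permutation test, 2 with the 12 arrays compared alone, and 0 with Xist above log2 10 or without spontaneous tumours 2 and 6. In cobalt tumours 2 rose with the mean of all probe sets and 2 without cobalt tumour 6 and control lung 1. Without spontaneous tumour 2 and cobalt tumour 5, an alternative chosen after seeing the data, 23 fell in spontaneous tumours.

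With the replicate block, 2 rose and 11 fell in spontaneous, 1 rose and 21 fell in cobalt tumours. Whether the numbers pair the arrays is not known. Leaving out each array in turn gave 0 to 2 that rose and 10 to 18 that fell in spontaneous, 0 to 2 and 20 to 28 in cobalt tumours, and 0 to 0 and 0 to 1 between the tumours. The rises moved without cobalt tumours 1 or 6 (2 in cobalt tumours), cobalt tumours 2 or 4 (0), control lung 3 or spontaneous tumour 4 (0 in spontaneous tumours) and cobalt tumour 4 or spontaneous tumour 6 (2). All 18 single left-out arrays kept the call of 30 of the 39 results. Signal over background is unknown here, so the dim genes Mx2, Oas3 and Oasl1 may have compressed changes.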
